A study of Mus musculus with 6 samples.

Results

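Oligodendrocytes wrap axons in myelin, and the genes described here follow that lineage from its precursor cells to the myelin sheath. The set held 9 genes, 5 of them markers of precursor cells (Olig1, Olig2, Sox10, Pdgfra and Cspg4) and 4 of myelin (Mbp, Mobp, Mag and Mog). They were taken by gene symbol from a table of 53801 genes. All 9 were found, and all 9 passed the minimum of 10 counts summed over the embryos, as did 24739 genes in all.

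RNA-seq was performed on polyadenylated RNA from the brains of 6 C57BL/6 mouse embryos at stage E16.5, 3 Bahd1-KO (Bahd1-/-) and 3 Bahd1-WT (Bahd1+/+). BAHD1 is a scaffold protein of complexes that form repressive chromatin, and the comparison asked whether its loss changes gene expression in the developing brain. The embryos were offspring of Bahd1+/- matings, so that Bahd1 was missing from every cell of a Bahd1-KO embryo throughout development. Litter and sex of the embryos were not given in the labels. Each library was 1 whole brain, so a lower level of a lineage gene cannot be told apart as fewer cells of the lineage or less RNA per cell.

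The libraries held 61724000 to 91782802 counts. Bahd1 itself was read 2, 10 and 6 times in the Bahd1-KO brains (replicates 1, 2 and 3) and 1971, 3102 and 3470 times in the Bahd1-WT brains, which checks the genotypes (log2 fold change -8.40, SE 0.61, edgeR adjusted p = 0.0462). Bahd1-KO replicate 3 stood apart from the other 5 libraries. Gm42418, which overlaps a ribosomal RNA repeat, held 22.6% of its counts against 0.12 to 0.394% elsewhere, and mitochondrial ribosomal RNA held 22.1% against 0.101 to 0.279%. Protein-coding genes held 53.5% of its counts against 97.8 to 98.4% elsewhere, so their levels per total count are lowered in this library. Bahd1-KO replicate 3 also lacked most of the signal of embryonic brain. The 7 markers of embryonic neurons summed to 692 CPM (counts per 1e6 counts of the embryo) in it against 8291 to 9645 CPM in the other 5, with Dcx, a microtubule protein of young neurons, at 22.5 against 2063 to 3941 CPM and Map2, a microtubule protein of dendrites, at 533 against 2194 to 3164 CPM. Fold changes below are therefore given with and without this embryo.

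In the embryonic brain, oligodendrocytes arise from progenitors in ventral germinal zones. OLIG2 and OLIG1, a pair of basic helix-loop-helix factors induced by Sonic hedgehog, specify the lineage, and SOX10 keeps it on course. Precursor cells divide in response to platelet-derived growth factor through PDGFRA and carry the proteoglycan NG2, the product of Cspg4. Later, mostly after birth in the mouse forebrain, cells leave the cycle, switch on MYRF and make myelin: MBP compacts the membrane, MOBP lies beside it in the sheath, MAG holds the sheath to the axon and MOG sits on its outer face. At E16.5 the precursor genes are thus known as markers of cells already present, and the late myelin genes as markers of a stage still to come.

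Promoters are shown for the myelin genes Mobp, Mag and Mog and for Olig2 as a precursor gene. These myelin genes were all highest in Bahd1-KO replicate 3 and next in Bahd1-WT replicate 1, while the order of the remaining embryos differed between them. RefSeq promoter sequences (GRCm38.p6) were matched for 6 of the 9 genes, not for Olig1, Sox10 and Mbp. Each sequence is 150 bases long, lies upstream of the starts given by RefSeq and by GENCODE, reads 5′ to 3′ on the gene's own strand, and has matches on either strand to 3 motifs in capitals. The motifs were ACAAAG (bound by SOX factors such as SOX10), CAGCTG (an E-box, bound by basic helix-loop-helix factors) and CTGGNAC (bound by MYRF).
Mobp: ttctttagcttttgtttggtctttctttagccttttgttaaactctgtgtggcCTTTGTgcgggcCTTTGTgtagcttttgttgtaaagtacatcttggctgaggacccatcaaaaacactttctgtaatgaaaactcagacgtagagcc
Mag: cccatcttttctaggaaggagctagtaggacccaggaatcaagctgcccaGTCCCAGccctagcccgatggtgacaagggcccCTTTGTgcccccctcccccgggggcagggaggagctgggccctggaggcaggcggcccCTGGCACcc
Mog: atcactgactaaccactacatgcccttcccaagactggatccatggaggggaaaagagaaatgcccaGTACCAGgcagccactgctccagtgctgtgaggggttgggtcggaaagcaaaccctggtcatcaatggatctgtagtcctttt
Olig2: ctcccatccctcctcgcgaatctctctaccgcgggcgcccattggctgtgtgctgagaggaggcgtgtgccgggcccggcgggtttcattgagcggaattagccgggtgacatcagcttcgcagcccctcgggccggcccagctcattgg
These lie at chr9:120149557-120149706 (+) for Mobp, chr7:30914923-30915072 (-) for Mag, chr17:37023399-37023548 (-) for Mog and chr16:91225307-91225456 (+) for Olig2. Mobp held ACAAAG 2 times. Mag held ACAAAG 1 time and CTGGNAC 2 times, Mog held CTGGNAC 1 time, and Olig2, Pdgfra and Cspg4 held none of the 3. Of 32851 windows of the same length over all promoters, 9.88% held ACAAAG, 8.39% held CAGCTG and 10% held CTGGNAC, with no overlap between the motifs in the sequences shown. A match is a description of the letters and not of a bound site.

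Levels are given as CPM in Bahd1-KO replicates 1, 2 and 3, then in Bahd1-WT replicates 1, 2 and 3. Fold changes are of Bahd1-KO over Bahd1-WT on the log2 scale, from the fit of all genes, scaled by TMM factors (trimmed mean of M-values). Olig2 (ENSMUSG00000039830, chromosome 16, 91225457 to 91228677, forward strand) was at 19.4, 25.7 and 5.05 CPM in Bahd1-KO and at 23.9, 23.1 and 19.6 CPM in Bahd1-WT. The 5 embryos other than Bahd1-KO replicate 3 lay close together, between 19.4 and 25.7 CPM, and Bahd1-KO replicate 3 was at 0.237 times the median of the 4 embryos left when Bahd1-WT replicate 1 was also set aside. The log2 fold change was -0.34 (SE 0.43, edgeR adjusted p = 0.789), and without Bahd1-KO replicate 3 it was -0.0011 (SE 0.25).

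Olig1 (ENSMUSG00000046160, chromosome 16, 91269772 to 91271933, forward strand) lies 41.1 kb downstream of Olig2. It was at 16.1, 35.6 and 5.92 CPM in Bahd1-KO and at 22.5, 29.8 and 23.5 CPM in Bahd1-WT. The highest and the lowest embryo were both Bahd1-KO, and the Bahd1-WT embryos lay between them. Between genotypes the log2 fold change was -0.33 (SE 0.47, edgeR adjusted p = 0.815), and 0.0087 (SE 0.35) without Bahd1-KO replicate 3.

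Sox10 (ENSMUSG00000033006, chromosome 15, 79154908 to 79165240, reverse strand) encodes the factor that precursor cells and myelinating cells share, and neural crest cells and Schwann cells of peripheral nerve carry it too. Its levels were 1.98, 6.85 and 3.00 CPM in Bahd1-KO and 4.51, 8.46 and 4.75 CPM in Bahd1-WT. The genotypes overlapped, with Bahd1-KO replicate 1 lowest and Bahd1-WT replicate 2 highest. Its log2 fold change was -0.40 (SE 0.52, edgeR adjusted p = 0.795), and -0.44 (SE 0.53) without Bahd1-KO replicate 3.

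Cspg4 (ENSMUSG00000032911, chromosome 9, 56865033 to 56899870, forward strand) marks precursor cells and also pericytes of blood vessels. It was at 4.76, 10.8 and 8.78 CPM in Bahd1-KO and at 6.34, 15.1 and 9.89 CPM in Bahd1-WT. Here too the genotypes overlapped, and Bahd1-KO replicate 1 and Bahd1-WT replicate 2 were again the extremes. Its log2 fold change was -0.099 (SE 0.49, edgeR adjusted p = 0.949), and -0.44 (SE 0.45) without Bahd1-KO replicate 3.

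Pdgfra (ENSMUSG00000029231, chromosome 5, 75152292 to 75198215, forward strand), the receptor that drives division of precursor cells, is also made by meningeal and other connective tissue cells. It was the most abundant precursor gene by count, at 91.9, 93.7 and 146.6 CPM in Bahd1-KO and 90.3, 85.5 and 66.6 CPM in Bahd1-WT. By CPM all 3 Bahd1-KO embryos lay above all 3 Bahd1-WT embryos, as they did for 3.97% of all genes tested. On the TMM scale the groups overlapped, where Bahd1-KO brains had log2 levels of 6.44, 6.41 and 7.75 and Bahd1-WT brains had 6.44, 6.31 and 5.91. All Bahd1-KO above all Bahd1-WT was found on that scale for 4.58% of genes. For Pdgfra the log2 fold change was 0.77 (SE 0.41, edgeR adjusted p = 0.696), and 0.17 (SE 0.22) without Bahd1-KO replicate 3.

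Mbp (ENSMUSG00000041607, chromosome 18, 82475146 to 82585637, forward strand) was the one myelin gene well measured in every brain. Besides the myelin protein, this locus makes Golli transcripts in precursor cells, neurons and immune cells, and a count per gene holds all of them. Mbp was at 26.6, 36.4 and 241.6 CPM in Bahd1-KO and at 63.0, 34.6 and 32.4 CPM in Bahd1-WT. Bahd1-KO replicate 3 was highest, Bahd1-WT replicate 1 came next, and the other 4 embryos lay between 26.6 and 36.4 CPM. Between genotypes the log2 fold change was 1.76 (SE 1.00, edgeR adjusted p = 0.696), and -0.49 (SE 0.36) without Bahd1-KO replicate 3.

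Mobp (ENSMUSG00000032517, chromosome 9, 120149707 to 120181484, forward strand) showed the same order with a far wider span. Bahd1-KO brains gave 46, 18 and 16319 counts and Bahd1-WT brains 1573, 17 and 23 counts, or 0.745, 0.235 and 207 CPM and 17.1, 0.208 and 0.252 CPM. The 95% Wilson interval for Bahd1-KO replicate 3 was 204 to 210 CPM and that for Bahd1-WT replicate 1 was 16.3 to 18.0 CPM. Against the median of the other 4 embryos, Bahd1-KO replicate 3 was 848-fold higher and Bahd1-WT replicate 1 was 70.3-fold higher, so that 1 embryo of each genotype carried nearly all of this transcript. For Mobp the log2 fold change was 4.17 (SE 2.75, edgeR adjusted p = 0.696). Its sign turned without Bahd1-KO replicate 3, to -3.66 (SE 1.92), and with Bahd1-WT replicate 1 left out as well it was 1.08 (SE 0.60).

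Mag (ENSMUSG00000036634, chromosome 7, 30899176 to 30914873, reverse strand) was at 0.486, 1.53 and 11.5 CPM in Bahd1-KO and at 2.56, 1.56 and 1.82 CPM in Bahd1-WT. Bahd1-KO replicate 3 was 4.502 times as high as Bahd1-WT replicate 1, the next embryo, while the other 4 ran from 0.486 to 1.82 CPM. Its log2 fold change was 1.75 (SE 1.18, edgeR adjusted p = 0.696), and -0.99 (SE 0.50) without Bahd1-KO replicate 3.

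Mog (ENSMUSG00000076439, chromosome 17, 37010743 to 37023398, reverse strand), the latest marker of the set, was read 3, 2 and 681 times in the Bahd1-KO brains and 73, 0 and 0 times in the Bahd1-WT brains. The 0 counts in Bahd1-WT replicates 2 and 3 allow levels of up to 0.0368 and 0.0329 CPM (3 counts). Bahd1-KO replicate 3 reached 8.63 CPM, 10.8 times the 0.795 CPM of Bahd1-WT replicate 1. At this depth Mog was at or near the limit of detection in 4 of the 6 brains. The log2 fold change was 4.04 (SE 2.63, edgeR adjusted p = 0.696) and -2.88 (SE 2.07) without Bahd1-KO replicate 3, and with both high embryos left out Mog did not reach the count minimum and was not tested. These intervals and limits cover counting error only.

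**Figure D1:**
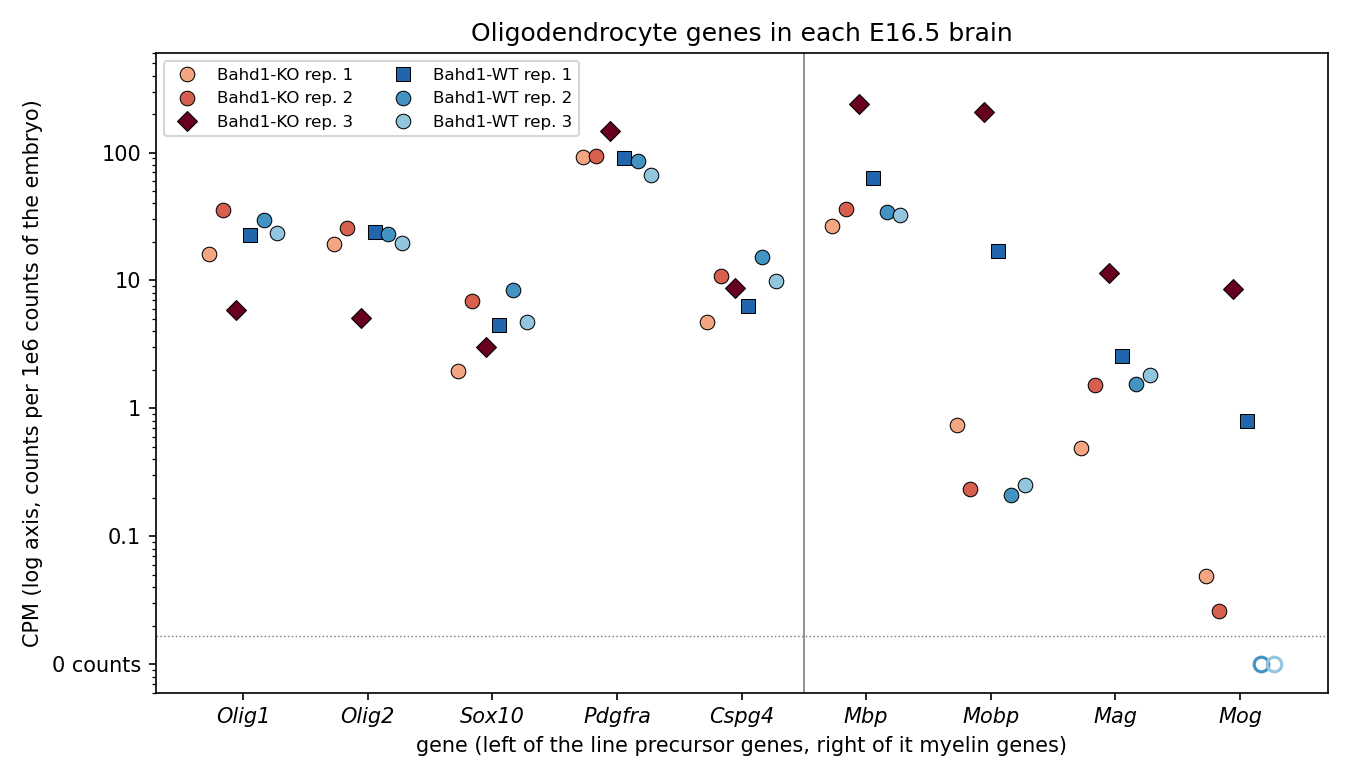
Level of the 9 genes in each of the 6 brains, in CPM on a log axis, with 1 point per embryo, precursor genes on the left and myelin genes on the right, and open symbols for 0 counts. Bahd1-KO replicate 3 (dark diamond) is lowest for Olig1 and Olig2 and highest for Pdgfra and the 4 myelin genes, and Bahd1-WT replicate 1 (dark square) is the next highest for all 4 myelin genes.

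No member passed the threshold. Of the 9 genes, 0 had an adjusted p under 0.05 in edgeR's quasi-likelihood test, where 0.00404% of all genes tested (Bahd1 alone) passed. At an unadjusted p under 0.05 the count was also 0 of 9, against 4.51% of all genes for higher and 0.166% for lower levels in Bahd1-KO. Without Bahd1-KO replicate 3 the count was 0 of 9 where 0.0171% of genes passed, and without Bahd1-WT replicate 1 as well it was 0 of 8 where 0.0177% passed. Of the 9 genes, 0 lay with all Bahd1-KO below all Bahd1-WT embryos by CPM, as 2.09% of genes did. DESeq2 called 0 of the 9 where it called 0.0323% of genes, and withheld the p-values of Mbp, Mobp and Mog because of an outlying count, as it did for 3.06% of genes.

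The median log2 fold change of the 5 precursor genes was -0.33, with 1 of 5 positive, beside a median of 0.06 over all genes tested. Without Bahd1-KO replicate 3 it was -0.0011 beside -0.0079. Of all genes tested, 53.8% were positive in all embryos and 49.2% without Bahd1-KO replicate 3. The median of the 4 myelin genes was 2.90 with 4 of 4 positive, and -1.94 with 0 of 4 positive once Bahd1-KO replicate 3 was left out. The direction of the myelin difference between genotypes was thus set by 1 embryo. In the remaining 5 it was set by Bahd1-WT replicate 1 for Mobp, whose log2 fold change turned from -3.66 to 1.08 without it, whereas Mbp (-0.085, SE 0.26) and Mag (-0.73, SE 0.52) stayed on the lower side.

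**Figure D2:**
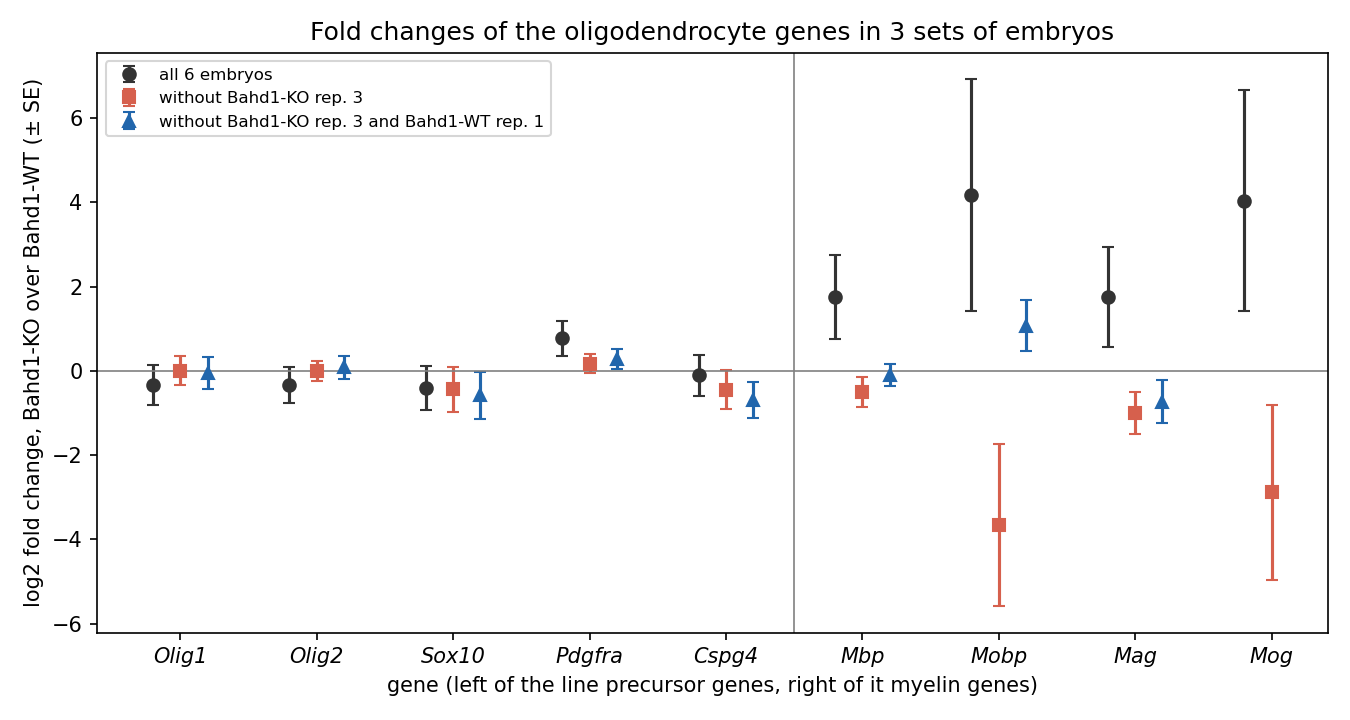
Log2 fold change of Bahd1-KO over Bahd1-WT with its standard error for each gene, fitted on all 6 embryos (circles), without Bahd1-KO replicate 3 (squares) and without this embryo and Bahd1-WT replicate 1 (triangles). The precursor genes stay between -0.68 and 0.77 in the 3 fits, while Mobp runs from -3.66 to 4.17, and Mog is missing from the third because it was not tested.

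Read per kilobase of exon, which allows genes to be compared, Olig1, Olig2 and Pdgfra had the highest means in Bahd1-WT embryos, and Mbp stood above Sox10 and Cspg4. Mean levels in reads per kilobase of exon per 1e6 counts (RPKM ± SD, n = 3) were 11.7 ± 1.81 for Olig1, 8.77 ± 0.913 for Olig2, 8.06 ± 1.25 for Pdgfra and 5.12 ± 2.01 for Mbp. They were 1.94 ± 0.725 for Sox10, 0.876 ± 0.371 for Cspg4, 0.857 ± 1.43 for Mobp, 0.486 ± 0.128 for Mag and 0.156 ± 0.269 for Mog. The ranges over Bahd1-WT embryos overlapped between Olig2 and Pdgfra, Pdgfra and Mbp, Cspg4 and Mobp, Mobp and Mag, and Mag and Mog, so the order of these neighbours was not resolved. The means of Mobp and Mog rested on Bahd1-WT replicate 1. In Bahd1-WT replicates 2 and 3 Mobp was at 0.0304 and 0.0368 RPKM, below Mag at 0.382 and 0.447 RPKM, and Mog had 0 counts.

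In Bahd1-KO replicate 3 the order was another. Mobp led with 30.2 RPKM, followed by Mbp with 28.5 and Pdgfra with 14.6 RPKM. Mog (5.06 RPKM) and Mag (2.83 RPKM) stood above Olig1 (2.74 RPKM) and Olig2 (1.998 RPKM). The summed CPM of the 4 myelin genes over that of the 5 precursor genes gave ratios of 0.208, 0.221 and 2.77 for the Bahd1-KO brains and 0.565, 0.224 and 0.278 for the Bahd1-WT brains. Per total count, the 5 precursor genes summed to 169 CPM in Bahd1-KO replicate 3, inside the 124 to 173 CPM of the other 5 embryos. That sum is not evidence of an even level, because CPM of protein-coding genes is lowered in this library. Pdgfra was highest there and Olig1 and Olig2 lowest, both by CPM and on the TMM scale. A sum on the TMM scale was not taken.

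Further genes of the pathway were taken from fixed lists of 56 genes in all. Of these, 0 passed the adjusted threshold, 3 were higher and 0 lower in Bahd1-KO at an unadjusted p under 0.05, beside 4.51% and 0.166% of all genes, and 28 of 56 fold changes were positive, beside 53.8% of all genes. Without Bahd1-KO replicate 3 the counts were 0 higher and 1 lower, where 1.09% of all genes were higher and 0.386% lower at that p. In that fit 20 of 56 were positive, beside 49.2% of all genes.

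The 13 lineage transcription factors had 0 genes at an unadjusted p under 0.05. Their median log2 fold change was -0.38, and -0.063 without Bahd1-KO replicate 3, in which 11 of the 13 were at their lowest CPM (53.1% of all genes were). Tcf7l2, which works in differentiating oligodendrocytes and in thalamic neurons, was at 20.9 CPM in that embryo and at 254.9 to 313.0 CPM in the other 5. Myrf, the factor that switches on myelin genes, went the other way, at 18.8 CPM against 1.73 to 2.92 CPM. Unlike the myelin genes, Myrf was not raised in Bahd1-WT replicate 1, where it stood at 2.42 CPM.

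Among the 7 inhibitors of differentiation, 0 of 7 reached an unadjusted p under 0.05, and the median log2 fold change was -0.19 (0.092 without Bahd1-KO replicate 3). Hes5, an effector of Notch, was at 0.190 CPM in Bahd1-KO replicate 3 and 1.70 to 6.11 CPM in the other 5, and Bmp4, a secreted inhibitor, was at 9.78 against 1.36 to 3.43 CPM. The PDGF list, made of the 4 PDGF ligands and the related receptor gene Pdgfrb, had a median of -0.0071 (-0.19 without Bahd1-KO replicate 3) with 0 of 5 at that p. Pdgfa, the ligand that precursor cells answer to, ran from 10.9 to 18.8 CPM over the 6 embryos.

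Of the 6 Sonic hedgehog genes, 1 was higher in Bahd1-KO at an unadjusted p under 0.05. This was Shh, the ligand itself (log2 fold change 2.83, SE 1.14, edgeR adjusted p = 0.696), at 39.7 CPM in Bahd1-KO replicate 3 and between 2.24 and 3.99 CPM in the other 5. Without that embryo its log2 fold change was 0.19. Ptch1, receptor and target of the pathway, was at 142.6 CPM in the same embryo against 82.0 to 88.3 CPM.

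The 10 precursor and premyelinating genes had a median of -0.096 (-0.095 without Bahd1-KO replicate 3). Ptprz1, a phosphatase of precursor cells and radial glia, was at 125 CPM in Bahd1-KO replicate 3 and 588 to 1078 CPM elsewhere. Bcas1 and Enpp6, which mark cells about to myelinate, took the order of the myelin genes. Bcas1 was at 68.6 CPM in Bahd1-KO replicate 3, 12.6 CPM in Bahd1-WT replicate 1 and 5.04 to 10.7 CPM in the rest, and Enpp6 at 3.24, 0.501 and 0.208 to 0.324 CPM.

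The 15 other myelin genes had a median log2 fold change of 1.41 with 14 of 15 positive, and -0.32 with 5 of 15 positive without Bahd1-KO replicate 3. In that embryo 13 of 15 were at their highest (25.9% of all genes were). At an unadjusted p under 0.05, 2 were higher. Mal, a proteolipid of compact myelin, was at 131 CPM in Bahd1-KO replicate 3, 7.14 CPM in Bahd1-WT replicate 1 and 2.096 to 3.45 CPM in the rest (log2 fold change 4.15, SE 1.69, edgeR adjusted p = 0.696). Without Bahd1-KO replicate 3 the log2 fold change of Mal was -0.32 (SE 0.54). Ermn, a cytoskeletal protein of myelin, was at 39.2 CPM against 3.05 to 5.51 CPM (log2 fold change 2.59, SE 1.09, edgeR adjusted p = 0.696, and 0.16, SE 0.37, without that embryo). Cldn11, the tight junction protein of myelin that other cells make too, was at 13.9 CPM in Bahd1-KO replicate 3 and 16.3 to 22.3 CPM in the others. On the TMM scale its log2 level there was about that of the highest of the others, at 4.34 against 3.91 to 4.33. Without Bahd1-KO replicate 3 the 1 lower gene was Trf, transferrin, an iron carrier of oligodendrocytes and choroid plexus (log2 fold change -1.29, SE 0.45, edgeR adjusted p = 0.981, and 0.65, SE 0.96, in all 6 embryos).

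The shared order of the myelin genes was then counted. Bahd1-KO replicate 3 first and Bahd1-WT replicate 1 second was found for 4 of 4 myelin members and for 0 of 5 precursor members, beside 4.43% of all genes tested. The order was read from the 4 myelin members themselves, so their count was fixed in advance and is a description only. That order also fixes Bahd1-WT replicate 1 as the highest Bahd1-WT embryo for the 4 myelin members. Within Bahd1-WT alone, replicate 1 was highest for 2 of 5 precursor members, beside 33.2% of all genes. The order over all 6 embryos was found for 7 of 15 other myelin genes, 3 of 10 precursor and premyelinating genes, and none of the 31 genes of the other 4 pathway lists. Outside the lineage it was found for 5 of 6 markers of astrocytes and 4 of 7 markers of neurons of the mature brain, and for 0 genes of the remaining 8 marker lists.

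Markers of other cells moved with these values, and their part in them was not tested. The 6 mature astrocyte markers summed to 1271 CPM in Bahd1-KO replicate 3, 417 CPM in Bahd1-WT replicate 1 and 216 to 348 CPM in the other 4, and 6 of 6 were highest in Bahd1-KO replicate 3. Slc1a2, the main glutamate transporter of astrocytes, was at 1103, 354 and 194 to 315 CPM, and Aqp4, a water channel, at 86.2, 39.0 and 7.41 to 28.6 CPM. The 7 mature neuron markers summed to 615 CPM in Bahd1-KO replicate 3 against 218 to 318 CPM, with Camk2a, a kinase of mature synapses, at 222 against 50.6 to 87.1 CPM. Of these 7 markers 5 were highest and 2 lowest in Bahd1-KO replicate 3 by CPM. The lowest were Rbfox3 (37.4 against 51.5 to 99.95 CPM) and Kcnc1 (33.2 against 39.0 to 63.6 CPM). Neither was lowest there on the TMM scale. Rbfox3 (5.78) lay within the others (5.60 to 6.53), and Kcnc1 (5.60) lay above Bahd1-KO replicate 1 and below Bahd1-WT replicate 2. The 6 radial glia markers summed to 555 CPM against 1242 to 1530 CPM, with Fabp7, a lipid carrier of radial glia, at 10.03 against 457 to 615 CPM and Slc1a3, a glutamate transporter, at 201 against 260 to 390 CPM. By CPM 5 of these 6 markers were lowest in Bahd1-KO replicate 3, and Vim, at 260 CPM, lay within the 219 to 373 CPM of the other 5. On the TMM scale Fabp7 stayed lowest (3.88 against 8.72 to 9.17). Slc1a3 (8.20) lay within the others (7.88 to 8.55) and Vim (8.57) above them (7.71 to 8.40).

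Markers of cells outside the lineage, some of which carry member genes, were examined as well. The 7 markers of meninges and connective tissue, cells that make Pdgfra, summed to 1410 CPM in Bahd1-KO replicate 3 against 310 to 457 CPM, with the fibrillar collagen genes Col3a1 at 756 against 122 to 183 CPM and Col1a2 at 342 against 80.8 to 124 CPM. Foxc1, a factor of the meninges, was lowest in Bahd1-KO replicate 3 (5.11 against 12.7 to 18.5 CPM). Twist1, at 1.37 CPM, lay within the 1.31 to 2.13 CPM of the others. On the TMM scale Foxc1 stayed lowest (2.90 against 3.56 to 4.12), and Twist1 was just above the others (1.01 against 0.286 to 0.946). The 10 markers of Schwann cells and neural crest, cells that make Sox10, Mbp and Mag, summed to 182 CPM against 39.3 to 49.2 CPM. Among them Pmp22, a protein of peripheral myelin, was at 106 against 22.0 to 24.0 CPM, and Erbb3, a neuregulin receptor, at 55.7 against 1.72 to 3.06 CPM (log2 fold change 4.06, SE 1.43, edgeR adjusted p = 0.696, and 0.44, SE 0.29, without that embryo). These 2 genes made up most of the sum. By CPM 6 of the 10 markers were highest and 2 lowest in Bahd1-KO replicate 3, and Foxd3 and Pmel lay within the range of the others. The lowest were Ngfr (1.46 against 4.99 to 12.3 CPM) and Dct (0.329 against 1.37 to 3.54 CPM), on the TMM scale as well. Pmel was highest on that scale, at a log2 level of -1.03 against -2.80 to -1.17. The 6 markers of pericytes, cells that make Cspg4, summed to 237 CPM against 289 to 347 CPM. Rgs5 was at 133 against 155 to 251 CPM and Abcc9 at 36.8 against 33.2 to 44.1 CPM. On the TMM scale pericyte markers were not lowered. Rgs5 (7.61) lay within the others (7.13 to 7.88) and Abcc9 (5.75) above them (4.91 to 5.38). The median log2 difference of the 6 markers from the 4 embryos other than Bahd1-WT replicate 1 was 0.32. The 6 microglia markers summed to 46.1 against 38.6 to 54.2 CPM, with Csf1r at 12.4 against 10.8 to 21.7 CPM and Cx3cr1 at 11.3 against 10.6 to 12.8 CPM. Their median log2 difference from the same 4 embryos on the TMM scale was 0.70.

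The 7 skeletal muscle markers summed to 48.7 CPM in Bahd1-KO replicate 3 against 2.64 to 12.8 CPM. The myosin gene Myh8 was at 19.5 against 0.551 to 3.51 CPM and the troponin gene Tnnt3 at 10.4 against 0.518 to 1.33 CPM. By CPM 6 of the 7 were highest there and 1 lowest. The lowest was Actn3 (0.469 against 0.535 to 1.54 CPM), which lay within the others on the TMM scale (-0.53 in -0.97 to 0.52). The 5 lung markers summed to 767 CPM against 0.294 to 12.2 CPM. Sftpc, the surfactant protein of alveolar cells, was at 566 CPM, and Sftpa1, another surfactant protein, at 108 CPM against at most 1.35 CPM. Bahd1-KO replicate 2 carried these markers too, with the 12.2 CPM, where the remaining embryos summed to at most 0.570 CPM. In it Sftpc was at 2.94 CPM, and Scgb1a1 was highest of all embryos, at 6.68 CPM against 4.46 CPM in replicate 3. In Bahd1-WT replicate 1, which shared the raised myelin genes, the lung markers summed to 0.294 CPM, with Sftpc at 0 counts. Bahd1-KO replicate 1 (0.308 CPM) and Bahd1-WT replicates 2 and 3 (0.466 and 0.570 CPM) were near the floor too, so these sums are not ranked. Neither connective tissue (310 CPM) nor Schwann cell markers (39.3 CPM) in Bahd1-WT replicate 1 exceeded those of the other embryos. Any relation between the lung markers and the myelin genes in these embryos was not tested.

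**Figure D3:**
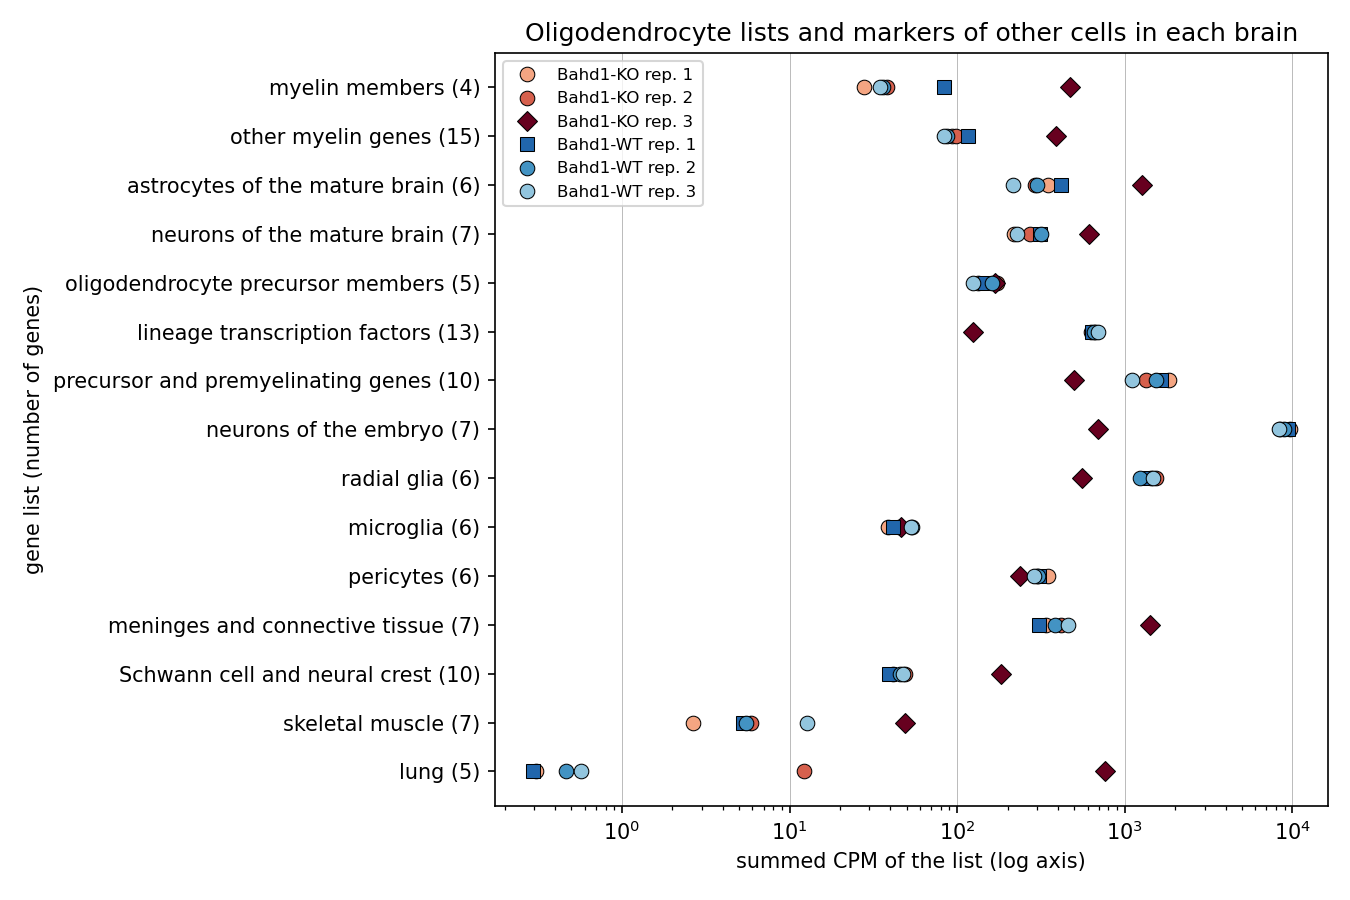
Summed CPM of each gene list in each brain on a log axis, 1 point per embryo, with the number of genes of the list in parentheses. Bahd1-KO replicate 3 (dark diamond) lies to the right of the others for myelin genes, mature astrocytes, mature neurons, connective tissue, Schwann cells, muscle and lung and to the left for embryonic neurons and radial glia, and Bahd1-WT replicate 1 (dark square) lies to the right of the remaining 4 for the myelin members and mature astrocytes.

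The GC content of the precursor genes was set beside their levels, since genes of high GC content differed between libraries. Protein-coding genes above a minimum mean level were divided by GC content into 10 groups of equal size. Olig1 (61.1% GC in its longest transcript), Olig2 (58.5%), Sox10 (61.8%) and Cspg4 (59.2%) all fell in the group richest in GC, and Pdgfra (48.1%) fell in group 5. Log2 levels were taken against the mean of the embryos other than Bahd1-KO replicate 3. The median of that richest group was -0.88, 0.30 and -1.07 in the Bahd1-KO brains (replicates 1, 2 and 3). It was -0.39, 0.50 and 0.48 in the Bahd1-WT brains.

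Against genes of like GC content, Olig1 in Bahd1-KO replicate 3 was at -0.33 and Olig2 at -0.41 on the log2 scale, where the uncorrected deviations were -1.40 and -1.48. In the same embryo Sox10 stood at 1.06, Cspg4 at 1.75 and Pdgfra at 1.66 above their groups. In Bahd1-KO replicate 1, the other embryo with low values of GC-rich genes, Olig2 was at 0.71, Olig1 at 0.29, Cspg4 at 0.039 and Sox10 at -0.37. After each library was corrected for GC content, the log2 fold changes were 0.16 for Olig1, 0.091 for Olig2, 0.27 for Sox10 and 0.58 for Cspg4. In this fit of all embryos the negative sign of these 4 genes was lost, and 0 of them passed the threshold. Without Bahd1-KO replicate 3 the corrected values were 0.35 for Olig1 and 0.36 for Olig2, while Sox10 (-0.16) and Cspg4 (-0.063) stayed negative. The part of GC content in the levels was not tested beyond this.

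**Figure D4:**
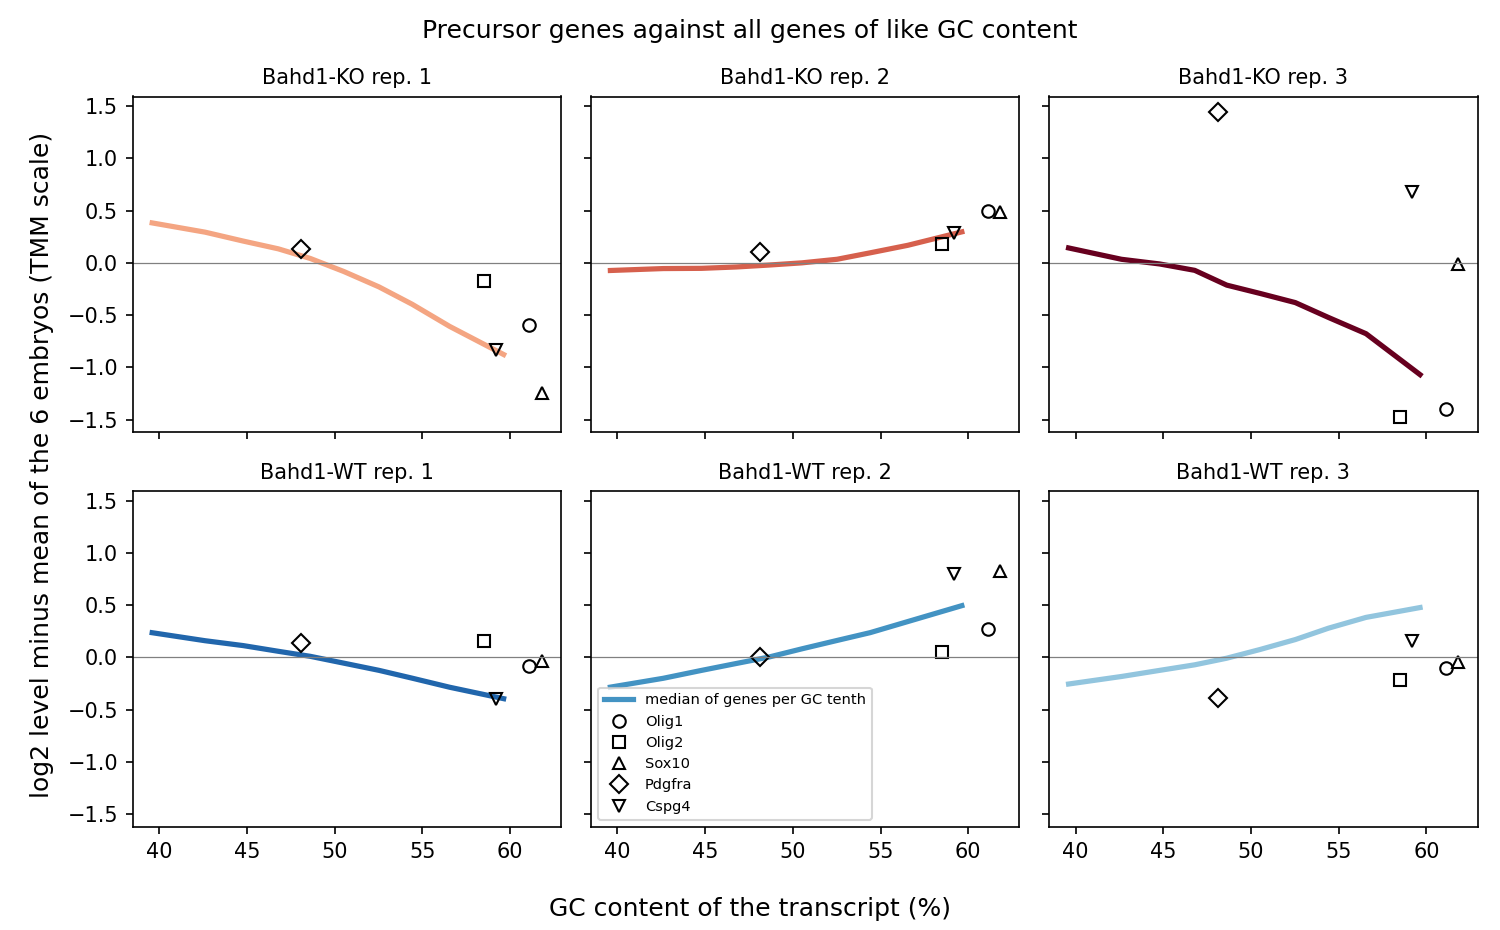
Log2 level minus a mean over embryos (TMM scale) against GC content in percent, 1 panel per embryo. The mean leaves out Bahd1-KO replicate 3, although the axis label names 6 embryos. The line is the median of protein-coding genes above a minimum mean level in 10 groups of GC content, and the symbols are the 5 precursor genes. The line falls to -0.88, -1.07 and -0.39 at high GC in Bahd1-KO replicates 1 and 3 and Bahd1-WT replicate 1 and rises to 0.30, 0.50 and 0.48 in the other 3 embryos.

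Genes with the profile most like that of a member were sought among 14738 genes with a mean of at least 1 CPM, by Euclidean distance between centred log2 levels over the 6 embryos. Nearest to Olig2 were Tspyl4 (distance 0.156), Btbd11 (0.171) and Cntnap4 (0.210), all with their lowest level in Bahd1-KO replicate 3. Olig1 came at rank 781, and the other precursor genes lay far off (Sox10 at rank 10233, Cspg4 at 11628 and Pdgfra at 12578). Nearest to Mbp were Sgpp2 (0.416), Itih3 (0.443) and Lgi4 (0.477). Each of these 3 was highest in Bahd1-KO replicate 3 and next in Bahd1-WT replicate 1, as with Itih3 at 12.3 and 2.59 CPM against 0.988 to 1.65 CPM in the rest. Of the other myelin members, Mag came at rank 341, whereas Mobp (14570) and Mog (14588) were among the farthest genes. The distances rest on 6 libraries.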

How the data were processed

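Polyadenylated RNA from 6 whole brains, 3 Bahd1-KO and 3 Bahd1-WT, was sequenced by the authors from stranded libraries as single-end reads in technical runs that were combined. What the authors deposited was 1 table of raw counts of reads by gene, with a column for each embryo and neither normalization nor filter. According to the submitters' notes and the study's methods, reads were trimmed (cutadapt 1.11), aligned to GRCm38 (STAR 2.5.0a is named in the notes, TopHat2 in a supplement) and counted by strand over exons with featureCounts 1.4.6-p3. Strand-specific counting keeps antisense genes apart.

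Groups and replicate numbers came from the sample titles. Positions, lengths and GC content came from GENCODE M21, which matched 53706 of 53801 genes (99.82%). Genes whose counts summed to at least 10 entered a quasi-likelihood fit in edgeR 4.0.16 (R 4.3.3) scaled by TMM, in which genotype was the sole term. Tests were two-sided, with Benjamini-Hochberg adjustment over all genes and a threshold of 0.05. Levels are CPM of total counts. Log2 levels used a prior count of 0.5. The study's methods used DESeq2. DESeq2 1.42.0 and voom of limma 3.58.1 were alternatives, as were other filters and factors, the replicate number as a block, non-coding RNA classes left out and each embryo left out. A GC correction by lowess (span 0.3), and fits without the embryos that stood apart, were added after seeing the data. The fit was tested on simulated data. The p-values measure the spread between 3 embryos per genotype.

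The members and gene lists were chosen with earlier results of these data known, and no test was made over a list. Named were the 9 genes, Bahd1, genes of the 6 pathway lists, the 2 most abundant genes of each marker list (by mean CPM, 1 of which is not reported here), and the 3 genes nearest in profile to Olig2 and to Mbp. Gm42418 and the examples taken from the pathway lists were chosen after their values were seen. So were further markers (Rbfox3, Kcnc1, Vim, Foxc1, Twist1, Ngfr, Dct, Foxd3, Pmel, Actn3 and Scgb1a1). Hes5 and Pdgfrb each stood in 2 lists. Replicate numbers were not taken to pair embryos.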

Additional observations from a re-analysis of the deposited data

How the results depend on the processing

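Across 19 alternatives, 4 of them chosen after seeing the data, 0 of the 9 member genes passed the adjusted threshold, with adjusted p of 0.237 or more. The edgeR filter filterByExpr left Mog out of the test. At an unadjusted p under 0.05 a member passed in 3 of them: Olig1 without Bahd1-KO replicate 2 (20.2% of all genes passed there), Mbp and Mag without Bahd1-KO replicate 1 (10.1%), and Mag by DESeq2 without Bahd1-KO replicate 3 (0.724%). The number of genes called, 1 in the edgeR fit, was 8 with DESeq2, 6 with voom and embryo quality weights and 0 with ribosomal, mitochondrial and small RNA genes left out (1056 at an unadjusted p under 0.05). It ran from 0 to 4 when each embryo was left out, with 4 without Bahd1-KO replicate 3, and was 4 without this embryo and Bahd1-WT replicate 1, 11 with DESeq2 without Bahd1-KO replicate 3, and 6 with the GC correction without it. Bahd1 kept its direction in all 19 (-8.97 to -7.88) and lost its adjusted call in 7, 5 of them with 1 embryo other than Bahd1-KO replicate 3 left out. The cause of these changes was not tested. Upper-quartile factors and total counts moved the median of all genes to 0.17 and -0.11.

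The median of the precursor genes was 0.27 with the GC correction and otherwise -0.72 to 0.13, and ran from -0.72 to -0.0011 with each embryo left out. That of the myelin genes ran from -1.94 to 5.48 with each embryo left out. The upper end, without Bahd1-WT replicate 1, is 4.25 with Mog at its bound (at least 83.3-fold higher, 3 counts per library). It was -1.96 with DESeq2 and -1.87 with the GC correction, both without Bahd1-KO replicate 3, and against 2.90 in all embryos it was 0.32 with voom, 0.52 with the replicate block and -0.085 without Bahd1-KO replicate 3 and Bahd1-WT replicate 1.

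Signs of log2 fold changes turned as follows. With each embryo left out, Olig1 ran from -1.01 to 0.0087, Cspg4 from -0.44 to 0.25, Mbp from -0.49 to 2.25, Mobp from -3.66 to 8.85, Mag from -0.99 to 2.31 and Mog from -2.88 upwards, the lowest value of each myelin gene and the highest of Olig1 being those without Bahd1-KO replicate 3. Cspg4 was 0.025 with upper-quartile factors, and with voom Mbp was -0.087 and Mag -0.90. With DESeq2 and without Bahd1-KO replicate 3, Olig1 was 0.0016, Mbp -0.50, Mobp -3.65, Mag -1.01 and Mog -2.91. Without it and Bahd1-WT replicate 1, Olig2 was 0.085, Mbp -0.085 and Mag -0.73. With the GC correction, Olig1 was 0.16, Olig2 0.091, Sox10 0.27 and Cspg4 0.58, and without Bahd1-KO replicate 3 besides, Olig1 was 0.35, Olig2 0.36, Mbp -0.45, Mobp -3.64, Mag -0.87 and Mog -2.88.

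Deviations of embryos with the same replicate number correlated at 0.12, 0.18 and -0.09, within the -0.36 to 0.25 of embryos with different numbers. Embryos with the same number thus did not stand out, but these few correlations cannot tell whether any embryos shared a litter. With the replicate number as a block the fit called 0 genes (517 at p under 0.05, not adjusted) and 0 members.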
